A study of Mus musculus with 9 samples.

Results

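Dmp1, Phex, Mepe, Fgf23, Fam20c, Ibsp and Spp1 are 7 genes through which bone cells shape their mineralising matrix and take part in phosphate control. They were followed in osteocyte-enriched bone through lactation and weaning. A gene entered through the probe sets that the array's annotation table assigns to it alone, and where it had several, the brightest by its mean across arrays stood for it. Of the 7 genes, 6 had such a probe set and 12 probe sets were found in all, among 18194 genes measured in this way. The table used here gives Spp1, the osteopontin gene, no probe set of its own, and Spp1 was not analysed here. Of the 6 genes measured, 5 had a mean above 4.87, the 40th percentile of all gene means on the log2 scale, which served as a floor for dim genes. Fgf23 did not.

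The RNA came from tibial shafts of wild-type CD-1 mice aged 16 to 18 weeks, stripped of periosteum and marrow and digested with collagenase and trypsin to remove surface cells. The extraction text also mentions femurs. There were 3 groups of 3 Affymetrix mouse arrays. Virgin mice matched for age were the controls, lactating mice nursing 8 to 13 pups were taken on day 12, and post-lactation mice were taken on day 7 after their pups had been removed on lactation day 12. No group carried a transgene, a deletion or a drug treatment. The group of each array was read from its title, because for the post-lactation arrays another label field names virgin mice. The labels do not say whether arrays were separate mice or pools, so every p-value measures the spread between these samples. The design asked which genes take part in remodelling of the bone matrix around osteocytes, and the comparisons were lactation with virgin, post-lactation with lactation, and post-lactation with virgin.

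Osteocytes are cells buried in bone that sense its mineral and signal to the kidney. Dmp1, Mepe, Ibsp and Spp1 encode SIBLING proteins, acidic secreted phosphoproteins that bind collagen, mineral or integrins and that lie side by side on 1 chromosome. Phex is a cell-surface endopeptidase, and loss of Phex or Dmp1 raises the phosphate-wasting hormone FGF23 and causes hypophosphataemic rickets. Fam20c is the kinase of the secretory pathway that phosphorylates the SIBLING proteins and FGF23. In lactation the skeleton releases calcium and phosphate for milk, and the mineral is regained after weaning.

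In the RefSeq gene table for GRCm38.p6 the order along chromosome 5 was Hsd17b11, Nudt9, Gm17660, Sparcl1, Dspp, Dmp1, Ibsp, Mepe, Spp1 and Pkd2, so the 4 SIBLING genes listed here were direct neighbours. Fam20c also lay on chromosome 5, outside this run, Fgf23 on chromosome 6 and Phex on chromosome X. The 250 bases before the RefSeq transcription start of Dmp1, Mepe, Ibsp and Phex, from the RefSeq promoter table for GRCm38.p6, are printed 5′ to 3′ on the gene's strand. They are shown because Dmp1, Phex and Mepe varied together from array to array, while Ibsp, the gene between Dmp1 and Mepe, followed them less closely. Fam20c also varied with these genes, but its window is not printed. Capitals mark the matches, on either strand, to the motifs that were searched.
Dmp1, upstream start, chr5:104197325-104197574, plus strand: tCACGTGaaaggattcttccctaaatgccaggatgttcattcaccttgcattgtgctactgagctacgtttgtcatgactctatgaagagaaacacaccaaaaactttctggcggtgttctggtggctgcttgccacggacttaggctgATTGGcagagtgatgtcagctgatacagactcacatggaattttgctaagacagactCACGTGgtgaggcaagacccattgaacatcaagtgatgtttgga
Dmp1, downstream start, chr5:104202367-104202616, plus strand: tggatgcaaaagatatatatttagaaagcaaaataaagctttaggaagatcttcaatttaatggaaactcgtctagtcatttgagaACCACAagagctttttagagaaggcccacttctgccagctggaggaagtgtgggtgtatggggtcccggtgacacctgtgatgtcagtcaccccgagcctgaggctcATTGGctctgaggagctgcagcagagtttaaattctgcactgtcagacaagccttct
Mepe, chr5:104325079-104325328, plus strand: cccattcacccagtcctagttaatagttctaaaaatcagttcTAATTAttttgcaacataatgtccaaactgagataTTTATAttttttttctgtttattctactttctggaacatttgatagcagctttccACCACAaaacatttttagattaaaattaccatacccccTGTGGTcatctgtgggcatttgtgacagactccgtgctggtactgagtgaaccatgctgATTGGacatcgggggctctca
Ibsp, chr5:104299037-104299286, plus strand: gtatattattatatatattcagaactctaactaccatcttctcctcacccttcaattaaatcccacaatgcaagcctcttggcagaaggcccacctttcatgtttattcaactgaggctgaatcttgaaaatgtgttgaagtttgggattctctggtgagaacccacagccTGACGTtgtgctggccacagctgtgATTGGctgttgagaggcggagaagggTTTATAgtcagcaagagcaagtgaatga
Phex, chrX:157415287-157415536, minus strand: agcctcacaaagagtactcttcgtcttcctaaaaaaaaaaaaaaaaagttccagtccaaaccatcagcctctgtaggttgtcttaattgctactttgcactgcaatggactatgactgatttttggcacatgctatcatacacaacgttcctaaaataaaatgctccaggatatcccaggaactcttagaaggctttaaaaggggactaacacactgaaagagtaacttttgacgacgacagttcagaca

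The search covered 8 motifs: the RUNX core TGTGGT, the CCAAT box CCAAT, the cyclic AMP response core TGACGT, the E-box CACGTG, the AP-1 site TGANTCA, the homeodomain core TAATTA, the TATA box TATAAA, and the MEF2 site. No match overlapped another. All 7 genes had at least 1 window, and there were 9 windows in all. A RUNX core stood in the second Dmp1 window 1 time and in the Mepe window 2 times, and 14% of all 32807 windows of this length held it. The E-box stood in the first Dmp1 window 2 times, against 6.02% of all windows with a match. The cyclic AMP response core was found among these genes in the Ibsp window alone, with 6.47% of all windows holding it, and lay 79 to 74 bases before the start. The CCAAT box was in both Dmp1 windows, Mepe and Ibsp, and in 33.8% of all windows. Mepe and Ibsp also held the TATA box, which 12.4% of all windows held, and Mepe the homeodomain core, held by 4.85%. Among the windows not printed, Fam20c and Spp1 held the CCAAT box. Spp1 also held the RUNX core, the TATA box and the homeodomain core, and Fgf23 held none of the motifs. None of the 8 motifs was in the Phex window, and no AP-1 or MEF2 match, held by 6.75% and 2.92% of all windows, was in any of the 9. These matches describe letters, and no binding was measured.

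The arrays differed in ways that the groups do not explain, and this bears on every value that follows. Exactly equal values show 3 sets of arrays, each with 1 array of every group. Set 1 holds virgin 1, lactation 3 and post-lactation 1. Set 2 holds virgin 2, lactation 2 and post-lactation 3, and set 3 holds virgin 3, lactation 1 and post-lactation 2. In sets 2 and 3, a pair of arrays shared 36.1% to 44.1% of its probe set values exactly, and within set 1 it shared 2.5% to 2.72%. Between sets, at most 2 probe sets were equal. The labels do not say what the sets stand for.

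The virgin 1 array also stood apart in osteocyte genes. Of 10 osteocyte markers outside the genes described here 9 were measured, and all 9 were above the floor. Their mean above the array median was 1.88 log2 units in virgin 1 against 3.86 and 4.29 in virgin 2 and virgin 3, 3.39 to 3.83 in lactation and 3.23 to 4.15 in post-lactation. Sost, the osteocyte gene for the Wnt inhibitor sclerostin, read 8.14 in virgin 1 and 11.59 to 13.55 in the other arrays. The 7 measured osteoblast markers were lower in virgin 1 as well, at 3.94 against 4.44 to 4.82 elsewhere, and the 9 neutrophil markers were highest there, at 7.75 against 6.66 to 7.46. The B lymphocyte markers were lowest in virgin 1, at 0.38 against 1.02 to 3.17. So were the macrophage markers (1.91 against 2.08 to 2.62) and the osteoclast markers (1.76 against 1.93 to 3.13). The erythroid markers, at 2.97, were not. In bulk RNA, fewer osteocytes and less RNA per osteocyte cannot be told apart. The differences against virgin mice are therefore given with and without virgin 1.

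Dmp1 encodes dentin matrix protein 1, which osteocytes secrete into the matrix around them. Its log2 RMA signal was 11.90, 13.82 and 13.88 in the virgin arrays, 13.83, 13.87 and 13.24 in lactation, and 13.16, 13.82 and 14.08 in post-lactation. Virgin 1 was the lowest of the 9, and the other 8 arrays spanned 13.16 to 14.08 with all 3 groups overlapping. Lactation exceeded virgin by 0.44 (SE 0.47), post-lactation exceeded lactation by 0.04 and post-lactation exceeded virgin by 0.48, each with SE 0.47, n = 3 and a limma adjusted p of 1. Without virgin 1 the differences from virgin were -0.20 in lactation and -0.17 in post-lactation (SE 0.31), so the sign turned in that fit. With the set as a block and without virgin 1 they were 0.03 and 0.06 (SE 0.10). Within set 2 lactation differed from virgin by 0.04, and within set 3 by -0.05.

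The other Dmp1 probe sets, named 1443746_x_at and 1426005_at beside the chosen 1443745_s_at, shared the low virgin 1 value. Both were lowest in virgin 1, at 10.46 against 11.72 to 13.50 elsewhere and at 9.29 against 10.73 to 12.55. Relative to the mean of virgin 2 and virgin 3, virgin 1 differed by -1.95, -2.71 and -2.96 log2 units in the 3 probe sets. Across sets 2 and 3 the chosen probe set spanned 0.26 log2 units from its lowest to its highest array, and the others spanned 1.05 and 0.60. The chosen probe set was bright, with 0.103% of all values above its mean.

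Mepe encodes matrix extracellular phosphoglycoprotein, the source of an acidic peptide that inhibits mineralisation and binds PHEX. Its signal was 9.53, 13.25 and 13.20 in virgin, 12.72, 12.99 and 12.57 in lactation, and 11.67, 13.01 and 12.81 in post-lactation. Virgin 1 was far below the rest, and post-lactation 1, from the same set, was next lowest. With virgin 1 included, lactation exceeded virgin by 0.77 (SE 0.80) and post-lactation exceeded it by 0.50 (SE 0.80), each with adjusted p of 1. Without virgin 1 every lactation and post-lactation array lay below both virgin arrays, with differences of -0.47 and -0.73 (SE 0.36) and unadjusted limma p-values of 0.224 and 0.0682. Groups separated in that direction without virgin 1 for 5.66% of all genes in lactation and for 5.01% in post-lactation, so such a separation was not rare. Within set 1 lactation was 3.04 above virgin, and within sets 2 and 3 it was -0.26 and -0.48 from it.

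Mepe was also the gene of the 5 above the floor with the largest deficit in virgin 1. With each array's median subtracted, virgin 1 was 3.40 below the mean of virgin 2 and virgin 3, the 6th largest deficit among 10916 genes above the floor. Sost had the largest deficit. Phex ranked 47, Dmp1 174 and Fam20c 237 on this measure, while Ibsp ranked 2864. From lactation to post-lactation, a comparison without virgin arrays, Mepe differed by -0.27 (SE 0.80), with -0.91, -0.18 and 0.28 in sets 1, 2 and 3, and was 0.15 without post-lactation 1.

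Ibsp encodes bone sialoprotein, which nucleates mineral and is made by osteoblasts, young osteocytes and hypertrophic chondrocytes, and which osteoclasts can also express. Its signal was 10.88, 11.35 and 11.45 in virgin, 12.29, 11.45 and 12.04 in lactation, and 10.25, 11.06 and 12.28 in post-lactation. All 3 lactation arrays were above all 3 virgin arrays, by a margin of under 0.01 log2 units between lactation 2 and virgin 3, and the post-lactation arrays spread across both groups. Lactation exceeded virgin by 0.70 (SE 0.43), a 1.62-fold difference, with a limma adjusted p of 1. The exact permutation test over arrays (two-sided) gave p = 0.1, the smallest that 3 arrays against 3 allow. Of all genes, 2.06% had lactation arrays all above the virgin arrays. The difference within sets was 1.16, 0.10 and 0.84, and 10.4% of all genes were higher in lactation in all 3 sets. Without virgin 1 the difference was 0.53 (SE 0.49), and in that fit Ibsp was the 1 gene of the 5 with a higher mean in lactation. With the set as a block as well, Ibsp was 0.74 higher (SE 0.62), and Dmp1 and Fam20c were 0.03 and 0.07 higher.

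From lactation to post-lactation Ibsp differed by -0.73 (SE 0.43, adjusted p of 1), with -1.80, 0.83 and -1.23 in the 3 sets, so set 2 went the other way. It was -0.25 without post-lactation 1 and -1.27 without post-lactation 3. Post-lactation 1 also had the highest level of the 4 measured adipocyte markers, 2 of them below the floor, at 2.48 above the array median against 1.03 to 1.53 elsewhere, and of the 6 endothelial markers, at 2.16 against 1.42 to 1.68. Their part in these values was not tested. Post-lactation and virgin differed by -0.03 (SE 0.43). The second Ibsp probe set, 1417485_at, read 9.05, 9.40 and 9.06 in virgin, 9.36, 10.38 and 9.81 in lactation, and 9.15, 8.55 and 9.53 in post-lactation. In it lactation 1 lay below virgin 2, so the groups overlapped. Its lactation minus virgin difference was 0.68 (SE 0.31), with 0.76, 0.97 and 0.30 in the sets. Its post-lactation minus lactation difference was -0.77 (SE 0.31), with -0.66, -0.85 and -0.81, lower in every set as in 16.1% of all genes. With the set as a block and all probe sets tested, the adjusted p was 0.327 for the first and 0.0744 for the second, both above 0.05. The 10 osteoclast markers were higher in lactation on the same arrays, at a mean of 2.75 to 3.13 above the array median against 1.76 to 1.94 in virgin and 1.95 to 2.43 in post-lactation, with 9 of 10 above the floor. Their part in the Ibsp values was not tested.

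**Figure D1:**
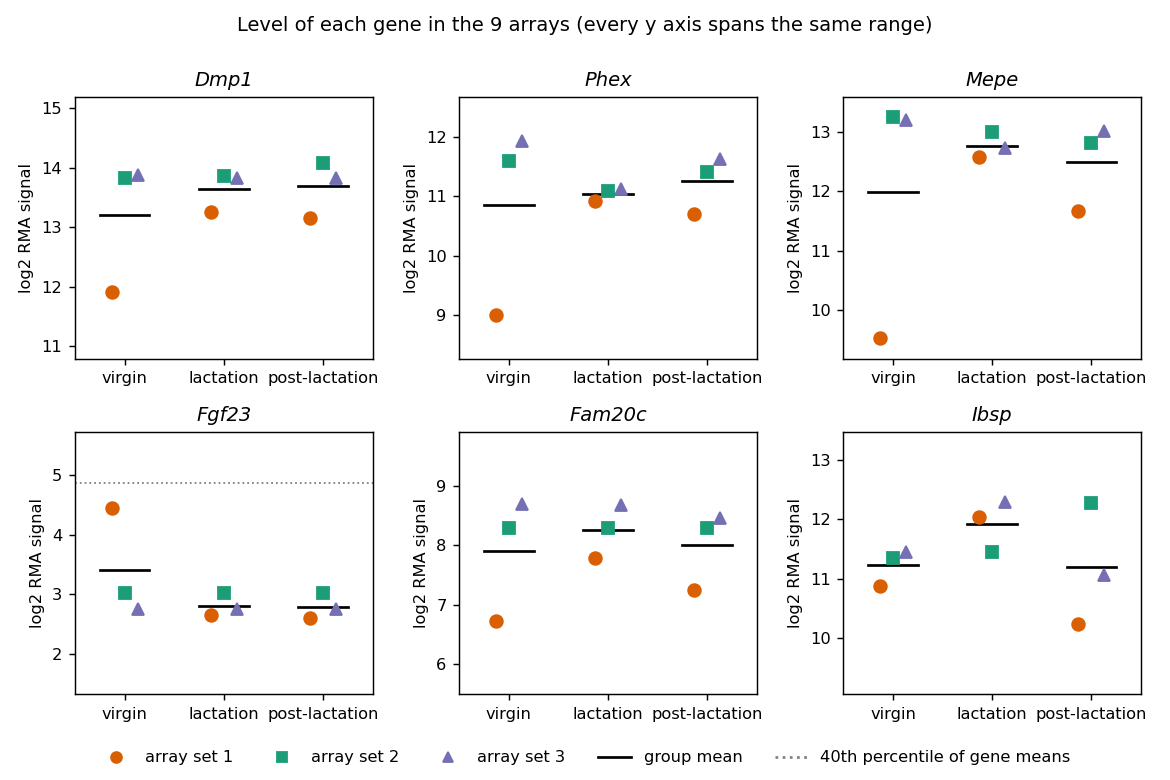
Log2 RMA signal (y axes, each spanning the same range) of the 6 measured genes in each of the 9 arrays, by group, with the mark giving the array set and the bar the group mean; the dotted line in the Fgf23 panel is the floor of 4.87. Virgin 1, the virgin mark of set 1, is the lowest array for Dmp1, Phex, Mepe and Fam20c, at 11.90, 9.02, 9.53 and 6.72. Of the 6 genes only Ibsp has all lactation arrays above all virgin arrays, as in 2.06% of all genes. The margin is 11.453 in lactation 2 against 11.450 in virgin 3, and these groups overlap in the second Ibsp probe set, not drawn.

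Phex encodes an endopeptidase of the osteoblast and osteocyte membrane. Its signal was 9.02, 11.59 and 11.94 in virgin, 11.12, 11.09 and 10.93 in lactation, and 10.71, 11.64 and 11.41 in post-lactation. The lactation arrays were close together (SD 0.10), virgin 1 was lowest and the other virgin arrays were above every lactation array. Without virgin 1, 5.66% of all genes had lactation arrays all below the virgin arrays, so this separation was not rare. With all arrays, lactation exceeded virgin by 0.20 (SE 0.60), post-lactation exceeded lactation by 0.21 and post-lactation exceeded virgin by 0.40, each with adjusted p of 1. Without virgin 1 the lactation minus virgin difference was -0.72 (SE 0.29), with an unadjusted limma p of 0.0298 and an adjusted p of 1. With the set as a block and without virgin 1 it was -0.55 (SE 0.18, adjusted p 0.408). Within sets 2 and 3 it was -0.50 and -0.81, and within set 1 it was 1.91.

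After weaning Phex was above lactation in sets 2 and 3, by 0.33 and 0.51, and below it in set 1, by -0.22. The post-lactation mean differed from the virgin mean by -0.51 (SE 0.29) when virgin 1 was left out. With the set as a block as well this difference was -0.35 (SE 0.18), and within sets 2 and 3 it was -0.18 and -0.30. Thus the Phex order among the 6 arrays of sets 2 and 3 was virgin, post-lactation, lactation in each set, as a description of 2 arrays a group. A second Phex probe set, 1450445_at, had a mean of 4.62, below the floor. Its lactation minus virgin difference was -0.04 with all arrays and -0.59 without virgin 1. In it post-lactation exceeded virgin by 0.005 in set 2 and 0.13 in set 3, so it did not repeat the order above.

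Fam20c, the kinase gene, read 6.72, 8.29 and 8.68 in virgin, 8.68, 8.29 and 7.78 in lactation, and 7.25, 8.46 and 8.29 in post-lactation. The 3 arrays of set 2 had exactly the same value, so no difference could appear there. Lactation exceeded virgin by 0.35, post-lactation differed from lactation by -0.25 and from virgin by 0.10, each with SE 0.49 and adjusted p of 1. Without post-lactation 1 the post-lactation minus lactation difference was 0.13. Without virgin 1 the 2 differences from virgin were -0.24 and -0.49 (SE 0.38). That fit keeps lactation 3 and post-lactation 1, the other arrays of set 1. With the set as a block as well, the differences were 0.07 and -0.18 (SE 0.13). Within set 3 they were -0.002 and -0.22. Another Fam20c probe set, 1443827_x_at, differed by -0.68 (SE 0.49) between post-lactation and lactation, with -1.45, -0.23 and -0.35 in the sets and an adjusted p of 0.337 with the set as a block. The third, 1457648_x_at, was dim, with a mean of 3.24.

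Fgf23, the hormone gene, read 4.46, 3.02 and 2.76 in virgin, 2.76, 3.02 and 2.65 in lactation, and 2.60, 2.76 and 3.02 in post-lactation. Every array was below the floor of 4.87, so no difference between groups is given. All 3 arrays of set 2 shared 1 value, and so did all 3 of set 3. Virgin 1, where Dmp1, Phex, Mepe and Fam20c were lowest, gave the highest Fgf23 reading, which was the sole array above the 20th percentile of gene means, 3.46.

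None of the 6 measured genes passed an adjusted p of 0.05 in any comparison. Over all 18194 genes the limma fit called 0 (0%) between lactation and virgin, 129 (0.709%) between post-lactation and lactation, and 32 (0.176%) between post-lactation and virgin. At an unadjusted p under 0.05 the fit had 328 (1.8%), 921 (5.06%) and 381 (2.09%) genes, and 0 of the 6. With the array set as a block the calls over all genes were 4 (0.022%), 642 (3.53%) and 82 (0.451%), and again 0 of the 6 were called. Without virgin 1 the calls were 0 (0%), 138 (0.758%) and 21 (0.115%), with 0 of the 6 among them. Calls were thus few among all genes, except in the blocked comparison of post-lactation with lactation. The median difference of the 5 genes above the floor was 0.44, -0.25 and 0.40 in the 3 comparisons, against 0.01, 0 and 0.00 for all genes. Without virgin 1 it was -0.24, -0.25 and -0.49, against -0.08, 0 and -0.09, so both comparisons with virgin changed sign. That fit keeps the other 2 set 1 arrays in their groups. With the set as a block and without virgin 1 the medians were 0.03, -0.25 and -0.18.

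**Figure D2:**
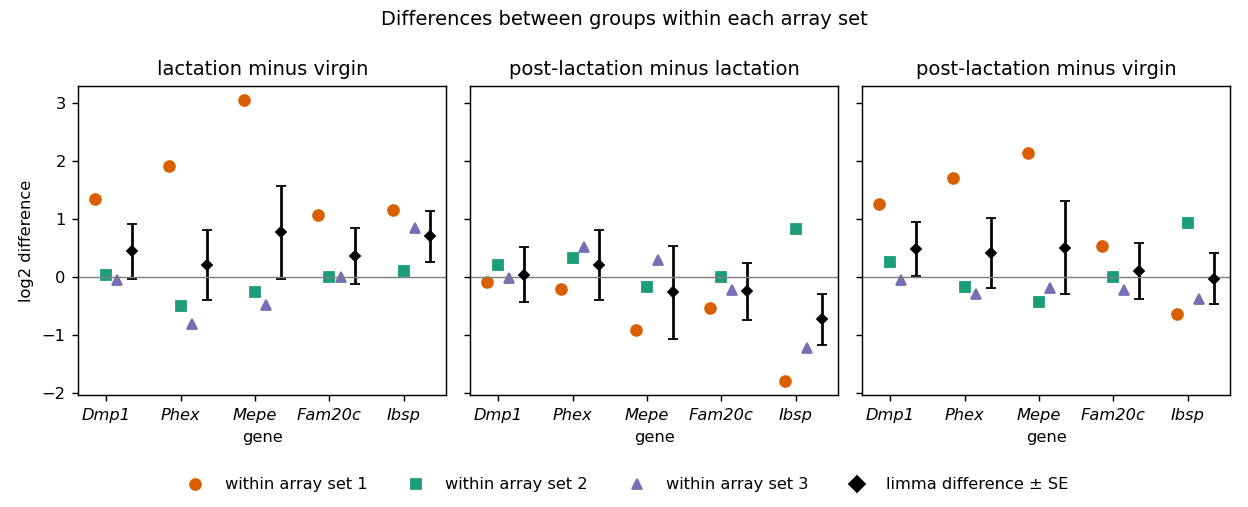
Log2 differences (y axis) between groups for the 5 genes above the floor, within each array set (coloured marks, 1 array minus 1 array) and from the fit to all 9 arrays (black diamonds, bars are ± SE). In lactation minus virgin the set 1 marks, which contain virgin 1, reach 3.04 for Mepe and 1.91 for Phex while the set 2 and set 3 marks of both genes lie below 0.

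Dmp1, Phex, Mepe and Fam20c varied together from array to array, and Ibsp followed them less closely. With each array's median subtracted, Pearson's r over the 9 arrays was 0.938 for Dmp1 with Phex, 0.949 for Dmp1 with Mepe and 0.948 for Phex with Mepe, and Fam20c correlated with these 3 at 0.867 to 0.896. Ibsp correlated with the 4 at 0.203 to 0.474. Virgin 1 carried much of this. Without it the 6 correlations among the 4 genes were 0.674 to 0.879, and those of Ibsp were 0.0372 to 0.465. In that setting 3.36% of 10911 other genes above the floor had a higher r with Dmp1 than its closest fellow member. The shares were 5.44% for Phex, 3.27% for Mepe, 3.4% for Fam20c and 8.73% for Ibsp. With all 9 arrays they were 0.577% for Dmp1, 0.642% for Phex, 0.321% for Mepe, 2.17% for Fam20c and 5.42% for Ibsp. The shared course was thus not particular to these genes. The values describe 9 arrays that share sets and the same preparation, and carry no test.

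The level of these genes also differed between array sets, and the set 1 means include virgin 1. With the mean of each set subtracted, r over the 9 arrays was 0.901 for Dmp1 with Phex, 0.918 for Dmp1 with Mepe and 0.94 for Phex with Mepe. Fam20c correlated with these 3 at 0.796 to 0.924 in that setting. Virgin 1 stayed among the 9 arrays there. Spearman's rho, which uses ranks, was 0.7 for Dmp1 with Phex, 0.567 for Dmp1 with Mepe and 0.967 for Phex with Mepe. For Fam20c with these 3 it was 0.559 to 0.746. The part of the sets in the shared course was not tested. With the array median subtracted, the mean of Dmp1 was 7.29 in set 1, 8.04 in set 2 and 8.27 in set 3. Mepe followed at 5.78, 7.14 and 7.41, Phex at 4.74, 5.49 and 5.99, and Fam20c at 1.77, 2.41 and 3.04. Ibsp had 5.58, 5.82 and 6.03. All 5 were lowest in set 1, and all but Ibsp had their lowest array in virgin 1. Within sets 2 and 3 alone, the range over 6 arrays was 0.26 for Dmp1, 0.39 for Fam20c, 0.53 for Mepe, 0.85 for Phex and 1.23 for Ibsp in the chosen probe sets. The order depends on the probe set, since Dmp1 spanned up to 1.05 in another, and the Fam20c range includes 3 tied arrays.

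**Figure D3:**
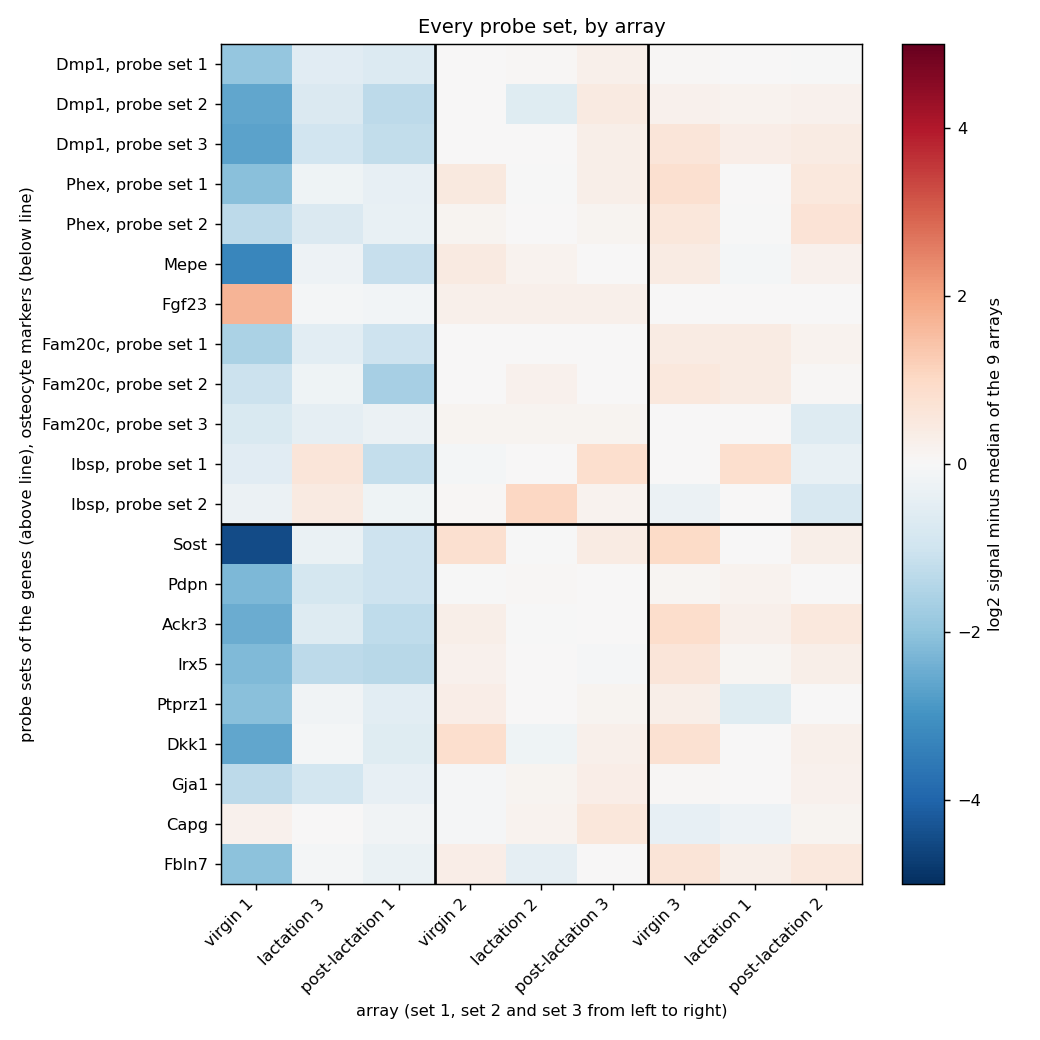
Log2 signal minus the median of the 9 arrays (colour scale) for all 12 probe sets of the 6 genes (rows above the horizontal line) and for 9 osteocyte markers (rows below it), with arrays grouped by set (columns). The virgin 1 column is low for every probe set of Dmp1, Phex, Mepe and Fam20c and for Sost, while Fgf23 is high there and Capg, an actin-capping protein gene, is not low.

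The genes most like each member in pattern, over 10911 other genes above the floor, were found by Pearson's r on the same median-subtracted values. For Mepe they were Arhgef5 (0.988), Sost (0.987) and Nab2 (0.984). For Phex they were Fzd3 (0.993), a Wnt receptor gene, Epcam (0.986) and Caskin2 (0.986). For Dmp1 they were Tnks1bp1 (0.989), Zc4h2 (0.987) and Bvht (0.984), and for Fam20c Plekhg1 (0.986), Tspyl4 (0.982) and Sar1a (0.982). The genes above an r of 0.9 numbered 214 (1.96%) with Dmp1, 238 (2.18%) with Phex, 161 (1.48%) with Mepe and 216 (1.98%) with Fam20c. No gene exceeded 0.9 with Ibsp, whose nearest were Surf2 (0.879), Mrps28 (0.83) and Fkbp14 (0.827). The names rest on the arrays used. Of the 15 named, 3 (Fzd3, Plekhg1 and Surf2) were still among the top 3 without virgin 1, and 2 (Bvht and Fzd3) after the mean of each set was subtracted. Sost, no longer in the top 3 for Mepe in either case, had an r of 0.905 and 0.976.

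The genes around these proteins were taken as 8 lists holding 71 measured genes, of which 48 had means above the floor. In the fit without a block 0 of the 71 were called in any comparison, and 4, 8 and 3 had unadjusted p-values under 0.05. Over all genes tested the shares with such unadjusted limma p-values were 1.8%, 5.06% and 2.09%. The median differences of the 71 genes were 0.07, -0.01 and 0.05 in the order of comparisons above. The medians against virgin were -0.16 in lactation and -0.17 in post-lactation when virgin 1 was left out, so both changed sign. All genes had medians of -0.08 and -0.09 in that fit, which keeps lactation 3 and post-lactation 1 of set 1. Within set 1 the 71 genes had medians of 0.31 and 0.27 against virgin 1. These were 0 and 0 within set 2, and 0 and -0.02 within set 3, where ties leave many differences at 0. With the array set as a block, 6 of the 71 were called between post-lactation and lactation, 5 lower and 1 higher. Of all genes 3.53% were called in that comparison, 2.99% lower and 0.539% higher. The block gave 0 list genes in the other comparisons. The 6 called were Vdr, Ctsb, Itga4, Nudt9, Abcg2 and Hsd17b11. Uncalled genes such as Gask1b, Itgb3 and Furin are named below because their groups did not overlap, so that separation is no separate result.

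Of 5 vitamin D genes 2 were above the floor, the receptor gene Vdr and its partner Rxra, and 1 was called with the block. Vdr read 7.44, 8.18 and 8.36 in virgin, 8.46, 8.43 and 8.31 in lactation, and 7.26, 7.35 and 7.63 in post-lactation. All 3 post-lactation arrays were below all lactation arrays, as in 4.38% of all genes. With the block Vdr fell from lactation to post-lactation by 0.99 on the log2 scale (SE 0.17), with -1.05, -0.81 and -1.10 in the sets. The adjusted p was 0.195 without a block, 0.037 with the set as a block and 0.049 without a block and without virgin 1.

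Among 8 measured genes of phosphate transport and pyrophosphate 5 were above the floor. Slc20a2, a sodium-phosphate cotransporter, read 6.20, 6.47 and 7.25 in virgin, 6.98, 7.34 and 7.37 in lactation, and 8.34, 8.04 and 8.28 in post-lactation. Every post-lactation array was above every other array, and 1.17% of all genes had post-lactation arrays all above the virgin ones. Post-lactation exceeded virgin by 1.58 (SE 0.27), with an adjusted p of 0.0613 over all genes. The adjusted p was 0.125 with the set as a block, 0.181 without virgin 1, where the difference was 1.36, and 0.0114 without virgin 3. It exceeded lactation by 0.99 (SE 0.27, adjusted p 0.265), with 0.96, 0.95 and 1.06 in the sets. The exporter gene Xpr1, the pyrophosphate transporter gene Ank and the phosphatase gene Alpl had no call with all arrays.

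Of 11 genes of FGF23 maturation and reception 8 were above the floor and 0 were called with or without the block. The klotho gene Kl, whose protein is the co-receptor of FGF23, had group means of 3.36 in virgin and 3.30 in lactation, both below the floor. Furin, a protease that cleaves FGF23, had all post-lactation arrays above all virgin arrays, as in 1.17% of all genes. Its difference from virgin was 0.18 (SE 0.18), or 0.20 without virgin 1.

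Among the other secretory kinase genes none was called, and among the proteases Ctsb was called with the block. Gask1b, a relative of Fam20c, read 5.91, 7.20 and 7.46 in virgin, 8.07, 8.86 and 7.98 in lactation, and 6.30, 6.93 and 7.65 in post-lactation, so the lactation arrays were above all the others. Of all genes, 2.06% had lactation arrays all above virgin, and 4.38% had post-lactation arrays all below lactation. Lactation exceeded virgin by 1.45 (SE 0.44, adjusted p of 1, and 0.158 with the block), or by 0.98 without virgin 1, and post-lactation differed from lactation by -1.34 (adjusted p 0.482, and 0.0577 with the block). Bmp1, the protease that cleaves DMP1 into its fragments, read 7.00, 7.54 and 7.65 in virgin, 7.93, 8.63 and 8.47 in lactation, and 7.56, 7.32 and 8.16 in post-lactation. It exceeded virgin in lactation by 0.95 (SE 0.29, adjusted p of 1), or 0.75 without virgin 1, with 1.47, 1.09 and 0.28 in the sets. Mmp9, a metalloprotease gene of osteoclasts that also stands among the osteoclast markers, exceeded virgin by 0.56 in lactation and by 0.44 in post-lactation (SE 0.23), and the kinase-like gene Dipk2a exceeded virgin by 0.31 in lactation (SE 0.23). Without virgin 1 these were 0.57, 0.46 and 0.39. Neither was called, and in each the groups did not overlap. Of all genes, 2.06% had lactation arrays all above virgin and 1.17% had post-lactation arrays all above virgin. Ctsb, the cathepsin B gene, fell between lactation and post-lactation by 0.36 with the block (adjusted p 0.0467, and -0.33, -0.35 and -0.38 in the sets), and its groups overlapped.

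Of 11 integrin and CD44 genes for receptors of SIBLING proteins 8 were above the floor. Itga4, an integrin of blood and marrow cells, read 8.30, 8.54 and 7.37 in virgin, 8.14, 8.93 and 8.82 in lactation, and 7.64, 7.20 and 7.66 in post-lactation. It fell between lactation and post-lactation by 1.13 with the block (adjusted p 0.00938, against 0.312 without). Itgb3, the integrin chain of osteoclasts that binds osteopontin and bone sialoprotein, exceeded virgin in lactation by 0.59 (SE 0.24, adjusted p of 1), or 0.46 without virgin 1. All its lactation arrays were above all virgin arrays, as in 2.06% of all genes. The groups also separated without a call for Itgb5, at -0.53 between post-lactation and lactation, and for Itga8 and Itga9, at 0.67 and 0.37 between post-lactation and virgin, or 0.39 and 0.31 without virgin 1. Of all genes, 4.38% had post-lactation arrays all below lactation, and 1.17% had them all above virgin.

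The list written for the SIBLING locus had 8 measured genes. With the block 3 of them were called between post-lactation and lactation, against 3.53% of all genes. Abcg2, among the 3, and Ppm1k lie on chromosome 6 in the mouse table and are no neighbours. The neighbours called were thus Nudt9 and Hsd17b11. In the list 6 genes were above the floor, and the tooth gene Dspp, next to Dmp1, was not. Nudt9 read 8.31, 8.56 and 8.18 in lactation and 7.56, 7.50 and 7.79 in post-lactation, a fall of 0.74 with the block (adjusted p 0.037). Abcg2, an efflux transporter gene also active in red cell precursors, read 8.12, 8.54 and 7.84 in lactation and 6.82, 6.99 and 7.40 in post-lactation, a fall of 1.09 (adjusted p 0.004 with the block and 0.236 without). Hsd17b11 rose by 0.47 over the same interval (adjusted p 0.0298 with the block). Dmp1, Mepe and Ibsp differed there by 0.04, -0.27 and -0.73 with no call.

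Markers of other cells moved on the same arrays. The 8 measured erythroid markers were all called lower in post-lactation than in lactation, with a median difference of -4.78 and a mean level of -1.06 to -0.04 relative to the array median in post-lactation against 4.01 to 4.42 in lactation. The 7 measured B lymphocyte markers had a median difference of 1.24, and the 10 osteoclast markers one of -0.98. Their part in the values of Vdr, Ctsb, Itga4, Nudt9 and Abcg2 was not tested.

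**Figure D4:**
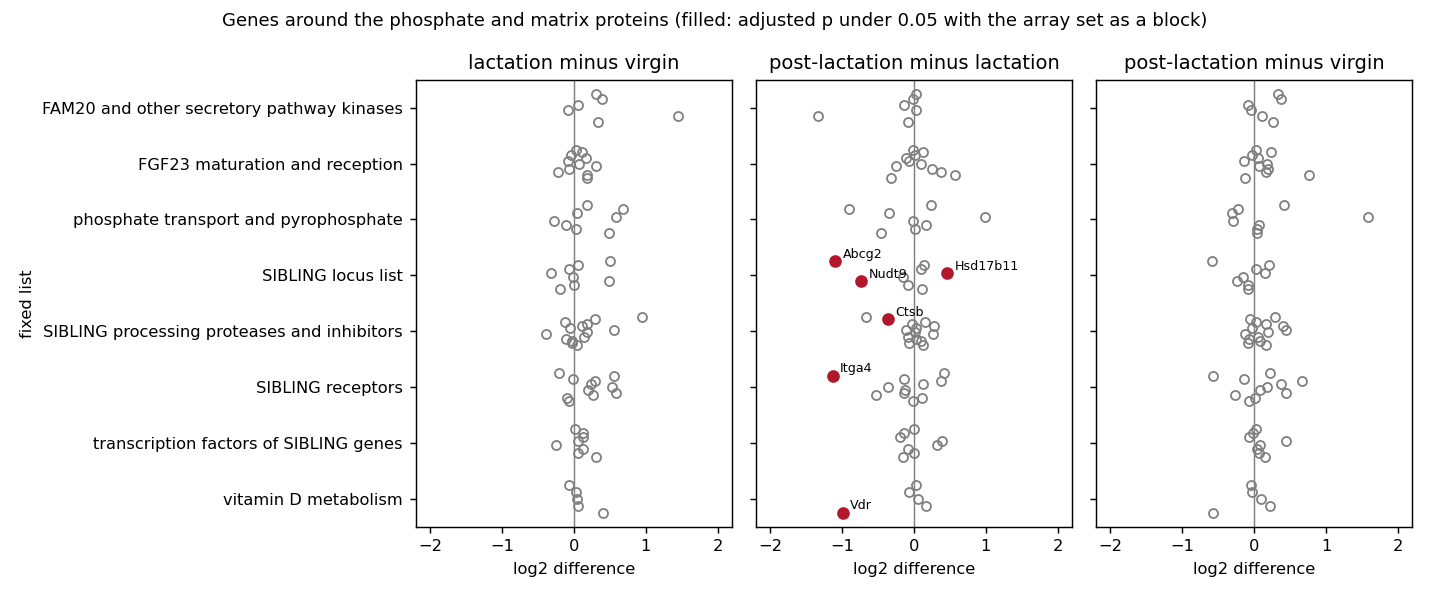
Log2 differences (x axes) of the 71 genes of the 8 lists (rows) in the 3 comparisons (panels), with 1 mark a gene, filled where the adjusted p was under 0.05 with the array set as a block. The 6 filled marks are all in post-lactation minus lactation, 5 below 0 and Hsd17b11 above it.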

How the data were processed

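The deposited table gives, per the submitters' processing notes, log2 values that the authors made with RMA for 45101 probe sets and 9 arrays. Software versions were not given in the sources used here. No value was missing, and no log was taken again. Exactly equal values between arrays gave the 3 array sets, and how they arose was not tested. They leave differences of exactly 0 for many probe sets within sets 2 and 3.

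Of the probe sets, 34958 named 1 gene in the platform table, 932 several and 9211 none. Each of 18194 genes was tested on its probe set with the highest mean, with limma 3.58.1 in R 4.3.3 (lmFit, eBayes without a trend, group means, 9 arrays), adjusted by Benjamini-Hochberg over all genes at 0.05, and tested on simulated data. Differences are log2, later group minus earlier, and SD is between arrays. The number of arrays limits the precision.

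Named were all members, list genes called in a comparison, up to 3 non-overlapping list genes above the floor with the largest differences, and the 3 genes most like each member. Members and lists were chosen with earlier results of these data known. Alternatives were blocks (replicate number, array set), arrays left out, probe set choice, array median, quantile and osteocyte marker scaling, dim genes left out, other floors, and a trend. Same-numbered arrays correlated at -0.413 to 0.67 in their deviations from group means, so numbers did not pair arrays; arrays of a set correlated at 0.468 to 0.734.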

Additional observations from a re-analysis of the deposited data

How the results depend on the processing

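No call of a member was gained in 19 settings with a test. The smallest limma adjusted p of a member, on its chosen or averaged probe sets, was 0.239. Taken alone, the second Ibsp probe set had 0.0744 in post-lactation minus lactation with the set as a block. Of 330 alternative values of single members 280 kept the sign, 47 had the opposite sign and 3 were 0. Differences within 1 array set gave 18 of the opposite signs and arrays left out gave 19. With the replicate number as a replicate block 0 members and 0 list genes were called in each comparison, and 1 of 9 arrays correlated best with its own number.

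Leaving out each array in turn moved the lactation minus virgin difference over -0.20 to 0.78 for Dmp1, -0.72 to 0.74 for Phex, -0.47 to 1.39 for Mepe, -0.24 to 0.75 for Fam20c and 0.52 to 0.94 for Ibsp. Post-lactation minus lactation ranged over -0.16 to 0.30, 0.02 to 0.48, -0.52 to 0.15, -0.48 to 0.13 and -1.27 to -0.25 in the same order, and post-lactation minus virgin over -0.17 to 0.82, -0.51 to 0.95, -0.73 to 1.13, -0.49 to 0.50 and -0.57 to 0.45. The lowest values against virgin came without virgin 1, except for Ibsp.

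With the array set as a block and virgin 1 left out, Phex and Mepe turned to -0.55 and -0.21 in lactation minus virgin, and Phex, Mepe, Fam20c and Ibsp to -0.35, -0.48, -0.18 and 0.0071 in post-lactation minus virgin. With the osteocyte marker mean subtracted, Phex turned to -0.093 (lactation minus virgin), Dmp1 to -0.036 (post-lactation minus lactation) and Fam20c to -0.26 (post-lactation minus virgin). The mean over probe sets turned Fam20c to -0.10 in post-lactation minus virgin. The cause was not tested.

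List genes called in post-lactation minus lactation numbered 6 with the array set block, 1 without virgin 1 (Vdr), 7 with both (Ank added, -0.90) and 1 with the array median subtracted (Abcg2). In post-lactation minus virgin, 1 gene, Slc20a2, was called without virgin 3, with dim genes left out or with a trend, at adjusted p 0.0114, 0.0372 and 0.042.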
